A study of Mus musculus with 6 samples.

Results

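The Hox genes encode homeodomain transcription factors that set position along the body axis, and in mice they lie in 4 clusters. The table of sorted mouse kidney cells held 39 of them among 31815 gene rows, chosen by symbol alone (Hoxa, Hoxb, Hoxc or Hoxd followed by a number), so that antisense and long noncoding genes of the clusters were left out. RNA came from the cortex and outer medulla of kidneys of male Axin2CreERT2/+:R26RtdT/+:Acta2-GFP mice aged 9 to 12 weeks, 6 days after bilateral ischemia reperfusion injury (IRI), in which the blood supply of the kidneys is stopped and then restored. The 3 tdT+GFP+ libraries held cells in which Cre from the Axin2 locus, a Wnt feedback gene, had switched on tdTomato after tamoxifen on days 2 and 4. The 3 tdT-GFP+ libraries held cells without that label. The labels name kidneys 1, 2 and 3, and both sorts have 1 library from each of them. All cells of both groups thus came from injured, tamoxifen-treated kidneys and carried GFP under Acta2, the smooth muscle actin gene, which smooth muscle cells and pericytes use as well as myofibroblasts. The tdT label marks past Axin2 use, not use on the day of the sort. Total counts were 26919514 to 33029933 in tdT+GFP+ libraries and 25697348 to 31337198 in tdT-GFP+ libraries.

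In each cluster the genes are numbered from the 3′ end, which is used towards the head, to the 5′ end, which is used towards the tail. Genes of the same number in different clusters are paralogues that overlap in function. Adult fibroblasts are known to keep the Hox combination of the place they came from, and in the embryonic kidney the paralogues of group 10 pattern the stroma while those of group 11 are needed to start the organ. On GRCm38 the 11 Hoxa genes lie on chromosome 6 (52155590 to 52260880, all on the minus strand). The 10 Hoxb genes lie on chromosome 11 (96194316 to 96368256), the 9 Hoxc genes on chromosome 15 (102921103 to 103036852) and the 9 Hoxd genes on chromosome 2 (74668310 to 74765142), all on the plus strand. All 39 are annotated as protein coding.

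The sorted cells carried RNA from nearly the whole length of all 4 clusters, up to paralogue 11, and almost none from paralogues 12 and 13. Of the 39 genes, 31 passed the filter on low counts and 8 did not. The 8 all lay at or next to the ends of their clusters. They were Hoxb1 and Hoxd1 at the 3′ end and Hoxa13, Hoxb13, Hoxc12, Hoxc13, Hoxd12 and Hoxd13 at the 5′ end. Hoxa13 and Hoxb13 had a count of 0 in all 6 libraries, which at 3 counts allows 0.0915 to 0.114 CPM (counts scaled by library size) per tdT+GFP+ library and 0.0988 to 0.112 CPM per tdT-GFP+ library. Over all 6 libraries together the counts were 1 for Hoxc12, 3 for Hoxd12, 4 for Hoxc13, 6 for Hoxd1, 11 for Hoxb1 and 13 for Hoxd13. The 6 genes of groups 12 and 13 together had 21 counts, against 61758 for the 10 genes of groups 9 to 11. The drop thus came after group 11 in Hoxa, Hoxc and Hoxd. In Hoxb it came after Hoxb9, since no gene stands between Hoxb9 and Hoxb13 in the table.

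Promoter sequences are shown for members with the highest RNA level and for 5′ members with little or none. RefSeq promoters (GRCm38.p6, 250 bases before to 50 after the start) were matched by symbol for 22 of the 39 genes, with 24 starts. Those printed are of the member with the highest level per kilobase and the last member of the Hoxa and Hoxd clusters. In the lines of letters, capitals mark CG dinucleotides, read 5′ to 3′ on the gene's strand. The Hoxa11 window is chr6:52245761-52246060 (minus strand), Hoxa13 is chr6:52260831-52261130 (minus), Hoxd10 is chr2:74691641-74691940 (plus) and Hoxd13 is chr2:74667975-74668274 (plus).
Hoxa11: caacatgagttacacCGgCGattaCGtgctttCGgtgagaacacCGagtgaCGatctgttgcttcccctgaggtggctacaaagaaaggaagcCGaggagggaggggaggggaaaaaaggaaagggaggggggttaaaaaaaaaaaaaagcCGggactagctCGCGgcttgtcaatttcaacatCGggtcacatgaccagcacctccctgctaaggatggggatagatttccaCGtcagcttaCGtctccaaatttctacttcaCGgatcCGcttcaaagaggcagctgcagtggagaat
Hoxa13: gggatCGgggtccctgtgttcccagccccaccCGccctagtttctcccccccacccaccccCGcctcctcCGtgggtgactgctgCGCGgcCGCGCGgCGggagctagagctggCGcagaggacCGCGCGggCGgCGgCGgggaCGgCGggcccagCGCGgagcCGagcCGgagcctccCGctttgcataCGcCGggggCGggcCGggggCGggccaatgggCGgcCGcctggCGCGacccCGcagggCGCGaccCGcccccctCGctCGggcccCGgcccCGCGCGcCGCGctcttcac
Hoxd10: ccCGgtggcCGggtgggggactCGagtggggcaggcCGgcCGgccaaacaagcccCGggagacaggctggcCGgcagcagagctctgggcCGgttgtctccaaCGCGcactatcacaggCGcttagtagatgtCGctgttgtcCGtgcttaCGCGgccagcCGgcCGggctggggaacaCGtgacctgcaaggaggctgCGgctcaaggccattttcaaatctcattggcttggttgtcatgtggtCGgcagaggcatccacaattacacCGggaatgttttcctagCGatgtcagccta
Hoxd13: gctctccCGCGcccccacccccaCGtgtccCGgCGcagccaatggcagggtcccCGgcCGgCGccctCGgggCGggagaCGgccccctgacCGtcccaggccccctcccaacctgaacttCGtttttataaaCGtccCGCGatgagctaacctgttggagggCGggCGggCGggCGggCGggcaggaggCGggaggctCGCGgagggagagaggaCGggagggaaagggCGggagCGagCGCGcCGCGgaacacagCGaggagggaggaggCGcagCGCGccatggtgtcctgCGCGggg

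Hoxa13 holds 45 CG dinucleotides in this window and Hoxa11 holds 15, while Hoxd13 holds 37 and Hoxd10 holds 22. Over the promoters found, the 5 of genes that did not pass the filter had 10 to 45 CG dinucleotides (median 29), and the 19 of genes that passed had 4 to 29 (median 14). The median over 32851 promoters of the whole table is 7. These counts describe the sequence, and methylation or chromatin was not measured here.

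Per length, expression peaked at group 10 or 11 in Hoxa, Hoxc and Hoxd and Hoxb was highest at Hoxb6 and Hoxb9, whose order cannot be read. Levels between genes are compared as CPM per kilobase of the union of annotated exons. Hoxa11 (ENSMUSG00000038210.10, chromosome 6, 52242106 to 52245810) had 24.3 ± 4.57 CPM per kilobase in tdT+GFP+ cells and 27.6 ± 9.84 in tdT-GFP+ cells (SD, n = 3 each). Hoxc10 (ENSMUSG00000022484.7, chromosome 15, 102966796 to 102971893) had 25.5 ± 1.70 CPM per kilobase in tdT+GFP+ cells and 26.6 ± 1.78 in tdT-GFP+ cells. Hoxd10 (ENSMUSG00000050368.4, chromosome 2, 74691924 to 74695105) had 23.9 ± 2.84 CPM per kilobase in tdT+GFP+ cells and 22.03 ± 4.37 in tdT-GFP+ cells. These 3 and Hoxa10 (22.2 ± 5.50 in tdT+GFP+ cells, against 26.1 ± 8.12 in tdT-GFP+ cells) lay within their spread of each other, so their order cannot be read. They stood at percentiles 88.2 to 89.8 among the 15453 tested genes with a length. Hoxb6 (ENSMUSG00000000690.5, chromosome 11, 96292476 to 96301569), the highest of its cluster by the mean, had 9.31 ± 1.23 CPM per kilobase in tdT+GFP+ cells and 12.4 ± 3.68 in tdT-GFP+ cells. Hoxb9 lay within that spread, at 8.48 ± 2.64 CPM per kilobase in tdT+GFP+ cells and 10.3 ± 2.71 in tdT-GFP+ cells. With the longest transcript as the length Hoxa10 (30.8 CPM per kilobase over both groups) stood above Hoxa11 (25.96), while Hoxc10 and Hoxd10 still led their clusters and Hoxb6 (10.9) its own.

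**Figure D1:**
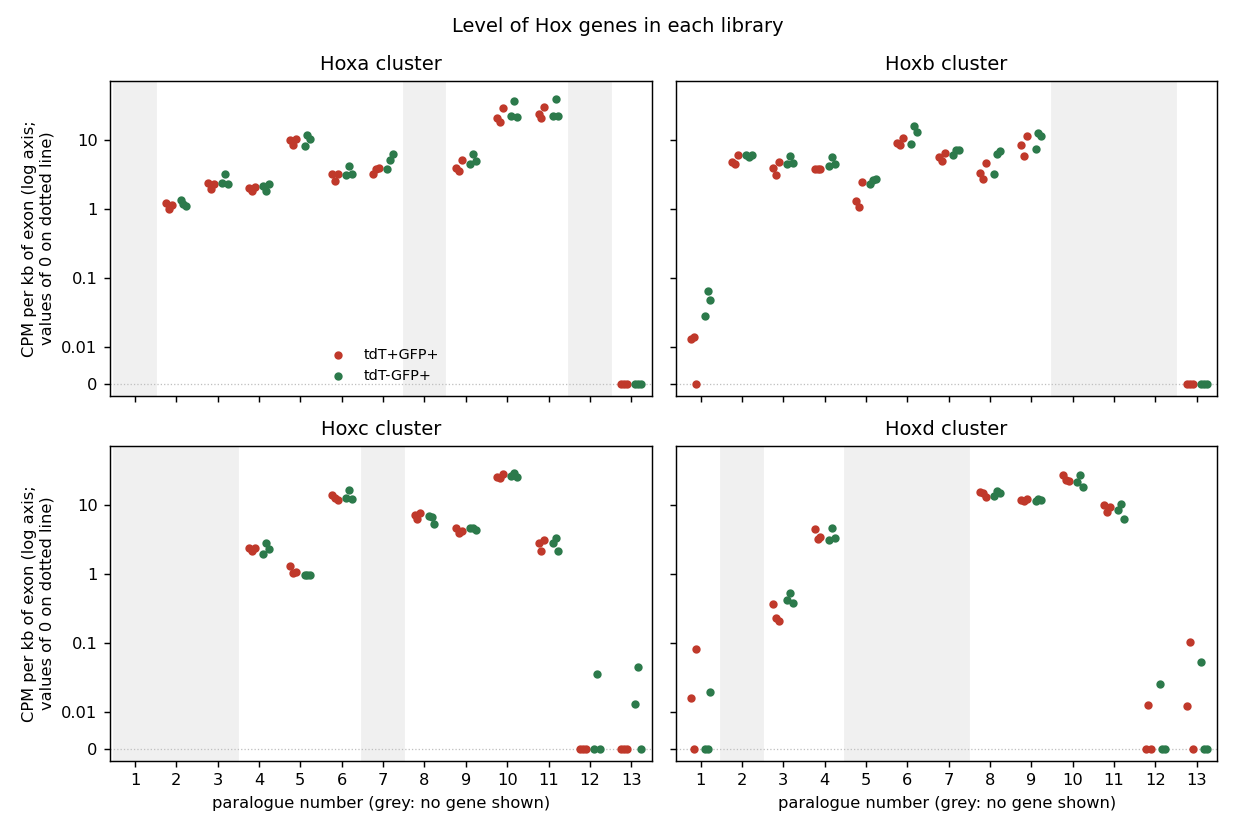
CPM per kilobase of exon for the Hox genes shown (y, log axis, values of 0 on the dotted line) by paralogue number (x), with a point for each of the 3 tdT+GFP+ and 3 tdT-GFP+ libraries and grey where no gene is shown. Levels of groups 12 and 13 sit at or near 0 in both populations, and both follow the same profile along each cluster.

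Away from the peak the clusters had their own shapes. Hoxa showed a second high point at Hoxa5 (9.37 ± 0.999 CPM per kilobase in tdT+GFP+ cells, against 9.87 ± 1.80 in tdT-GFP+ cells), between Hoxa4 (1.93 ± 0.14 in tdT+GFP+ cells and 2.09 ± 0.24 in tdT-GFP+ cells) and Hoxa6 (2.95 ± 0.36 in tdT+GFP+ cells, against 3.50 ± 0.60 in tdT-GFP+ cells). Hoxc6 likewise stood at 12.6 ± 0.89 CPM per kilobase in tdT+GFP+ cells, against 13.605 ± 2.25 in tdT-GFP+ cells, above Hoxc5 at 1.13 ± 0.15 in tdT+GFP+ cells, against 0.95 ± 0.01 in tdT-GFP+ cells. Hoxd8, Hoxd9 and Hoxd10 were all high, and Hoxd3 was the lowest of the tested genes at 0.27 ± 0.08 in tdT+GFP+ cells, against 0.44 ± 0.08 in tdT-GFP+ cells. Hoxc11 was far below its paralogues, at 2.70 ± 0.49 CPM per kilobase in tdT+GFP+ cells, against 2.72 ± 0.60 in tdT-GFP+ cells, while Hoxd11 had 8.95 ± 1.05 in tdT+GFP+ cells, against 8.23 ± 1.90 in tdT-GFP+ cells. The median of the 31 tested Hox genes was 4.44 CPM per kilobase, beside 4.10 over all tested genes.

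Groups 9 to 11 made up most of the Hox RNA in both populations. Their share of the summed CPM per kilobase was 58.5% ± 1.38 in tdT+GFP+ libraries, against 56.8% ± 2.80 in tdT-GFP+ libraries. Groups 5 to 8 held 30.6% ± 1.18 in tdT+GFP+ libraries, against 31.8% ± 2.51 in tdT-GFP+ libraries, and groups 1 to 4 held 10.9% ± 0.251 in tdT+GFP+ libraries, against 11.3% ± 0.637 in tdT-GFP+ libraries. The libraries of the populations overlapped for each of these shares.

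Before the comparison, the libraries themselves need a description, since replicate 2 stood apart for Hox genes in both sorts. The summed level over the 39 genes was 598, 524 and 648 CPM in tdT+GFP+ libraries 1, 2 and 3 and 574, 778 and 601 CPM in tdT-GFP+ libraries 1, 2 and 3. Replicate 2 of tdT+GFP+ cells was thus the lowest of the 6 and replicate 2 of tdT-GFP+ cells the highest, while the others overlapped. Replicate 2 of tdT+GFP+ cells had the lowest value of 17 of the 31 tested genes (54.8%, beside 17.7% of all tested genes). Replicate 2 of tdT-GFP+ cells had the highest value of 20 of the 31 (64.5%, beside 22.5% of all tested genes).

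Macrophage markers ran in the opposite direction in these libraries. Their sum over 8 markers, all tested and none at 0, was 1013, 1504 and 401 CPM in tdT+GFP+ libraries 1, 2 and 3 and 520, 287 and 882 CPM in tdT-GFP+ libraries 1, 2 and 3, highest and lowest in the same 2 libraries. The sum over 10 proximal tubule markers, none at 0, was 523 to 609 CPM in tdT+GFP+ libraries, against 354 to 1321 CPM in tdT-GFP+ libraries. In replicate 2 of tdT-GFP+ cells, the water channel gene Aqp1 alone held 1070 of the 1321 CPM. Sums were 213 to 756 CPM in tdT+GFP+ libraries, against 587 to 1264 CPM in tdT-GFP+ libraries for 10 distal tubule and duct markers, and 745 to 1345 CPM in tdT+GFP+ libraries, against 1498 to 3198 CPM in tdT-GFP+ libraries for 12 endothelial markers, with none at 0. Mural markers (10) had 1143 to 1439 CPM in tdT+GFP+ libraries, against 1437 to 2589 CPM in tdT-GFP+ libraries, and podocyte markers (5) had 395 to 469 CPM in tdT+GFP+ libraries and 483 to 602 CPM in tdT-GFP+ libraries. The macrophage pattern was shared in part. Within each sort, endothelial and mural sums were also highest in replicate 2 of tdT+GFP+ cells and lowest in replicate 2 of tdT-GFP+ cells. So was the sum over proximal tubule markers without Aqp1, at 552 and 251 CPM. Mesothelial and Schwann cell sums were at most 16.4 and 1.76 CPM in any library. The 12 stromal markers, among them Col1a1, Pdgfrb and Acta2, summed to 58770 to 66289 CPM in tdT+GFP+ libraries, against 45346 to 67531 CPM in tdT-GFP+ libraries. This was the highest sum of these lists in every library. Most of it came from Col1a1, Col1a2 and Col3a1, at 20790.5, 14079.5 and 18256 of 61032 CPM in replicate 1 of tdT+GFP+ cells. Sums over unlike genes do not rank cell types. Axin2 itself had 52.8, 29.7 and 64.2 CPM in tdT+GFP+ libraries and 43.0, 64.2 and 27.3 CPM in tdT-GFP+ libraries, so its RNA at the sort did not separate the groups, and Acta2 had 1416 to 1747 CPM in tdT+GFP+ libraries and 943 to 1588 CPM in tdT-GFP+ libraries. The part of any of these cells in the Hox values was not tested. In such bulk libraries, fewer cells of a type and less RNA per cell cannot be told apart.

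**Figure D2:**
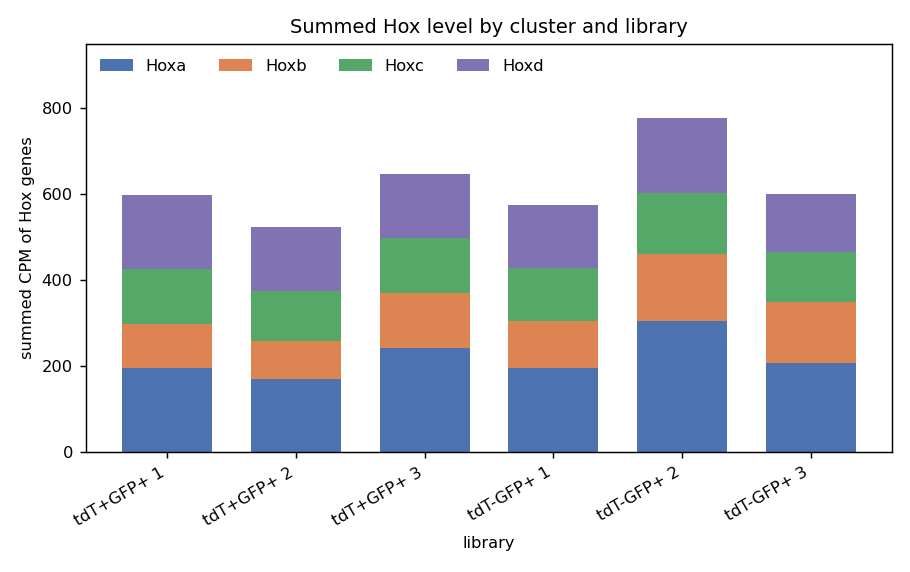
Summed CPM of the 39 Hox genes in each library (y, from 0), stacked by cluster, with the 3 tdT+GFP+ libraries left of the 3 tdT-GFP+ libraries. Replicate 2 of tdT+GFP+ cells is the lowest at 524 CPM and replicate 2 of tdT-GFP+ cells the highest at 778 CPM.

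The comparison asks whether GFP+ cells with the tdT label carry another Hox code than GFP+ cells without it, and no Hox gene passed the test. Axin2 RNA averaged 48.9 CPM in tdT+GFP+ and 44.9 CPM in tdT-GFP+ libraries, so lack of the label does not show lack of Axin2 use. At an adjusted p under 0.05 in edgeR's quasi-likelihood test, 0 of the 31 were higher and 0 lower in tdT+GFP+ cells, beside 0% of the 15462 genes tested in either direction. The adjusted p of the 31 ran from 0.447 to 0.996. At an unadjusted p under 0.05 there were 2, Hoxa7 and Hoxb4 (6.45%), beside 10.7% of all genes tested. Both were lower in tdT+GFP+ cells, as were 6.97% of all genes. DESeq2 called 0 Hox genes as well, beside 0.124% of all genes higher and 1.86% lower, and with a kidney block beside 0.248% higher and 1.62% lower. Limma-voom also called 0, beside 0% of all genes in either direction. The values did not overlap between the groups for 3 of the 31, with Hoxb4 and Hoxd3 lower and Hoxc5 higher in tdT+GFP+ cells, beside 15.8% of all genes tested (8.6% all lower and 7.23% all higher). Both shares are below the background.

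The intervals show how large a difference these libraries leave possible. The 95% interval of the log2 fold change (tdT+GFP+ over tdT-GFP+, not adjusted for the number of genes) lay within 2-fold in both directions for 27 of the 31. Among the exceptions were Hoxb5, Hoxb8 and Hoxd3, whose intervals reached -1.42, -1.38 and -1.45. The narrowest were those of the abundant Hoxd9 (-0.20 to 0.17), Hoxc10 (-0.26 to 0.14) and Hoxd8 (-0.26 to 0.23).

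Fold changes were negative for 25 of the 31 (80.6%, beside 50.1% of all genes tested), with a median of -0.11 beside -0.000385 over all genes. By cluster the median was -0.21 for Hoxa (9 of 10 negative), -0.34 for Hoxb (8 of 8), -0.04 for Hoxc (5 of 7) and -0.01 for Hoxd (3 of 6). In the libraries labelled kidney 2 only 1 of the 31, Hoxc5, was higher in tdT+GFP+ cells, against 19 in kidney 1 and 15 in kidney 3, beside 48.9%, 51.8% and 49.2% of all genes tested in kidneys 2, 1 and 3. Without both libraries of kidney 2, 15 of the 31 fold changes were negative and the medians were -0.01 for Hoxa, -0.14 for Hoxb, 0.12 for Hoxc and 0.17 for Hoxd. Without replicate 2 of tdT-GFP+ cells alone, 17 of the 31 were negative. Hoxb leaned the same way outside kidney 2, with 3 of its 8 genes higher in tdT+GFP+ cells in kidney 1 and 1 of 8 in kidney 3.

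**Figure D3:**
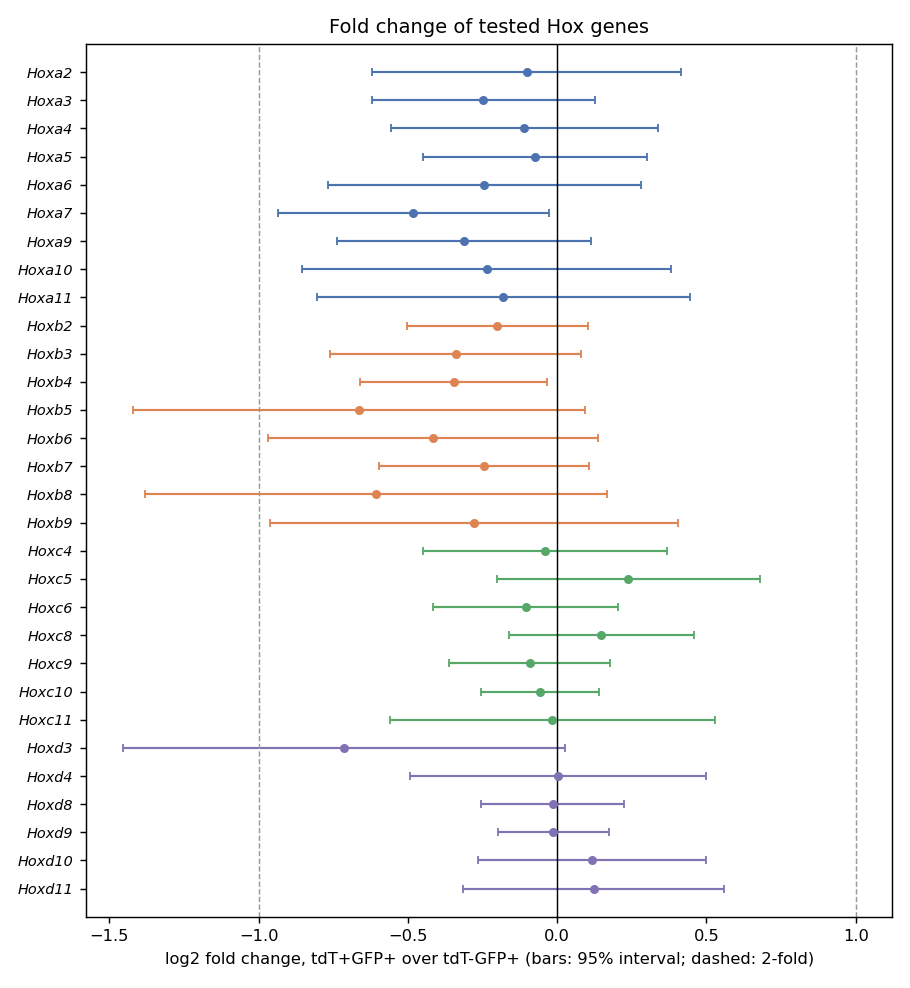
Log2 fold change (x, tdT+GFP+ over tdT-GFP+) of tested Hox genes from the 3′ to the 5′ end of each cluster, with 95% intervals and dashed lines at 2-fold. All 8 Hoxb genes lie left of 0, and all intervals drawn but those of Hoxb5, Hoxb8 and Hoxd3 stay between the dashed lines.

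Hoxa10 and Hoxa11, abundant 5′ members of Hoxa, varied more between libraries than between populations. Hoxa10, a stromal patterning gene in the embryonic kidney, had 66.9, 58.1 and 92.7 CPM in tdT+GFP+ libraries 1, 2 and 3, against 70.9, 116 and 69.3 CPM in tdT-GFP+ libraries 1, 2 and 3. The groups overlapped, with the high values in replicate 3 of tdT+GFP+ and replicate 2 of tdT-GFP+ cells. Its log2 fold change was -0.24 (adjusted p = 0.711, SE 0.26, edgeR), and it was 0.04 with replicate 2 of tdT-GFP+ cells left out. Hoxa11, needed with its paralogues for induction of the kidney, had 53.7, 46.3 and 66.9 CPM in tdT+GFP+ libraries and 50.6, 89.0 and 49.5 CPM in tdT-GFP+ libraries. The same 2 libraries were high, and the log2 fold change was -0.18 (adjusted p = 0.782, SE 0.26), and it was 0.14 with replicate 2 of tdT-GFP+ cells left out. The spread between libraries of a group was 28.7% of the mean for Hoxa10 and 29.6% for Hoxa11, where counting alone gives 2.10% and 2.42%, so depth did not limit these values.

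The paralogues of groups 10 and 11 in the other clusters were steadier. Hoxc10 had 48.0, 45.9 and 52.3 CPM in tdT+GFP+ libraries and 50.1, 54.4 and 47.8 CPM in tdT-GFP+ libraries, with overlapping groups and a log2 fold change of -0.06 (adjusted p = 0.777, SE 0.08). Hoxc11 had 5.64, 4.38 and 6.32 CPM in tdT+GFP+ libraries and 5.56, 6.69 and 4.26 CPM in tdT-GFP+ libraries, and its log2 fold change of -0.02 (SE 0.23) turned to 0.14 without replicate 2 of tdT-GFP+ cells. Neither gene set the populations apart. Hoxd10 had 49.2, 41.1 and 39.7 CPM in tdT+GFP+ libraries and 38.4, 48.7 and 33.04 CPM in tdT-GFP+ libraries, a log2 fold change of 0.12 (adjusted p = 0.774, SE 0.16). Hoxd11 had 41.6, 32.9 and 38.6 CPM in tdT+GFP+ libraries and 35.3, 42.3 and 26.4 CPM in tdT-GFP+ libraries, a log2 fold change of 0.12 (adjusted p = 0.792, SE 0.18). Both were lowest in replicate 3 of tdT-GFP+ cells, without which the values were -0.0040 for Hoxd10 and -0.04 for Hoxd11. Hoxd9 was the steadiest of the 31, with a spread of 4.26% of the mean beside 3.72% from counting, at 23.8 to 25.9 CPM in tdT+GFP+ libraries, against 24.0 to 26.1 CPM in tdT-GFP+ libraries.

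**Figure D4:**
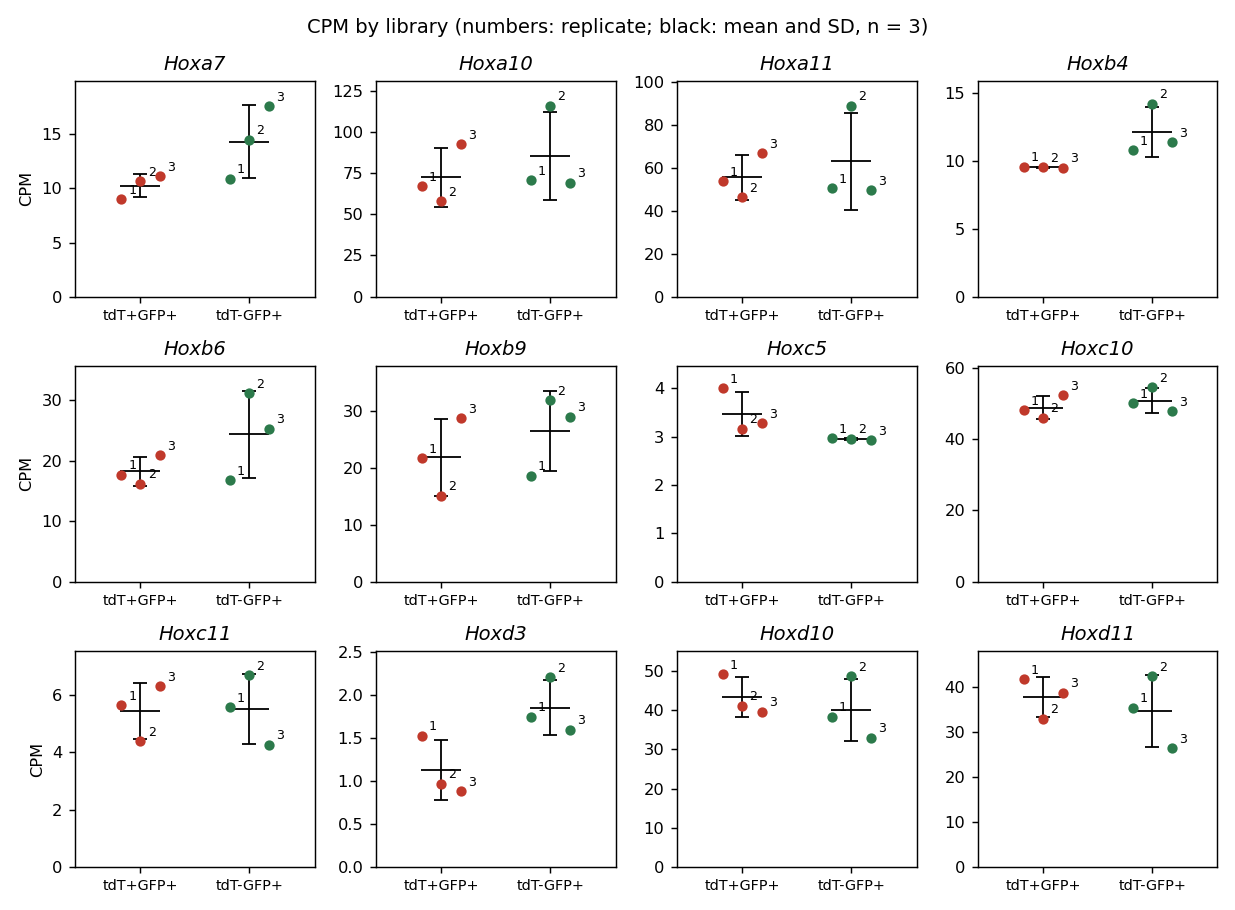
CPM (y, from 0) of 12 Hox genes in each library, tdT+GFP+ left of tdT-GFP+, with the replicate number beside each point and the mean and SD in black (n = 3). Replicate 2 of tdT-GFP+ cells is the highest point for Hoxa10 and Hoxa11 at 116 and 89.0 CPM, and the groups overlap for all but Hoxb4, Hoxc5 and Hoxd3.

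Hoxb genes had the largest shift as a cluster, with no member past the threshold. Hoxb4, known for its role in blood stem cells, had 9.58, 9.57 and 9.51 CPM in tdT+GFP+ libraries and 10.8, 14.2 and 11.4 CPM in tdT-GFP+ libraries. All 3 tdT+GFP+ libraries were below all 3 tdT-GFP+ libraries, and the log2 fold change was -0.35 (adjusted p = 0.447, SE 0.13), and it was -0.22 with replicate 2 of tdT-GFP+ cells left out. Hoxb6, a gene of the middle of the cluster, had 17.7, 16.2 and 20.9 CPM in tdT+GFP+ libraries and 16.8, 31.1 and 25.3 CPM in tdT-GFP+ libraries (log2 fold change -0.42, adjusted p = 0.515, SE 0.23). Its groups overlapped through replicate 1 of tdT-GFP+ cells, and the value was -0.13 without both libraries of kidney 2. Hoxb9, the last active gene of the cluster, had 21.7, 15.1 and 28.7 CPM in tdT+GFP+ libraries and 18.6, 31.9 and 29.0 CPM in tdT-GFP+ libraries. Its log2 fold change of -0.28 (adjusted p = 0.693, SE 0.28) turned to 0.08 without both libraries of kidney 2. The widest differences of the cluster were those of Hoxb5 (4.44 ± 2.02 CPM in tdT+GFP+ cells, against 7.02 ± 0.608 CPM in tdT-GFP+ cells, log2 fold change -0.66, SE 0.32) and Hoxb8 (9.28 ± 2.48 CPM in tdT+GFP+ cells, against 14.1 ± 5.06 CPM in tdT-GFP+ cells, -0.61, SE 0.32). Hoxb5 ran from -1.08 to -0.41 and Hoxb8 from -0.86 to -0.35 when libraries or kidneys were left out. Hoxb5 was at -1.08 with replicate 3 of tdT+GFP+ cells left out and at -0.41 with both libraries of kidney 2 left out. Hoxb8 also had the widest spread between libraries of the 31, 34.0% of the mean.

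Hoxa7, Hoxd3 and Hoxc5 complete the members singled out by p or by separation. Hoxa7 had 9.03, 10.7 and 11.1 CPM in tdT+GFP+ libraries and 10.9, 14.5 and 17.6 CPM in tdT-GFP+ libraries. The groups overlapped slightly, the fold change was negative in all 3 kidneys, and the log2 value was -0.48 (adjusted p = 0.453, SE 0.19), and it was -0.31 with replicate 3 of tdT-GFP+ cells left out. Hoxd3 had 1.53, 0.967 and 0.875 CPM in tdT+GFP+ libraries and 1.74, 2.205 and 1.59 CPM in tdT-GFP+ libraries (log2 fold change -0.71, adjusted p = 0.469, SE 0.31). Its low counts make it uncertain, as do exons it shares with other rows on the same strand. Of its 4191 exon bases 2225 also belong to Gm28230, a row with 985 counts over the 6 libraries against 258 for Hoxd3, and 388 belong to Hoxd4. How the authors' counting divided reads among these rows was not tested, and the place of Hoxd3 as the lowest tested gene depends on it. Hoxc5 had 3.997, 3.16 and 3.27 CPM in tdT+GFP+ libraries and 2.96, 2.95 and 2.93 CPM in tdT-GFP+ libraries, higher in all 3 tdT+GFP+ libraries, with a log2 fold change of 0.24 (adjusted p = 0.606, SE 0.18). It was 0.13 with replicate 1 of tdT+GFP+ cells, the highest library, left out. Annotated exons of Hoxc5 and the far more abundant Hoxc10 overlap by 166 bases on the same strand (3.92% of the distinct 50-base stretches of Hoxc5 transcripts), so its estimate is uncertain. Rows outside the 39 also share exon bases on the same strand with Hoxd4 (1154, Gm28230), Hoxa3 (482, Gm28308), Hoxd11 (455, Gm28309), Hoxa2 (267, Gm28308) and Hoxd10 (104, Gm28309), so these values are uncertain too. Gm28309 had 2799 counts, against 6316 for Hoxd11 and 7289 for Hoxd10.

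The clusters stood apart to different degrees in the libraries of kidney 2. In replicate 2 of tdT-GFP+ cells, the median deviation from the gene mean over the 6 libraries was 0.43 on the log2 scale for Hoxb, 0.33 for Hoxa, 0.24 for Hoxd and 0.13 for Hoxc. In replicate 2 of tdT+GFP+ cells, it was -0.42 for Hoxb, -0.25 for Hoxa, -0.10 for Hoxd and -0.08 for Hoxc. In replicate 3 of tdT-GFP+ cells the clusters parted, with 0.24 for Hoxb against -0.01 for Hoxa, -0.07 for Hoxd and -0.09 for Hoxc. As a share of summed Hox CPM, Hoxb thus took 17.9% ± 1.68 in tdT+GFP+ libraries, against 21.0% ± 2.47 in tdT-GFP+ libraries and Hoxd took 26.8% ± 3.13 in tdT+GFP+ libraries, against 23.5% ± 1.47 in tdT-GFP+ libraries. The groups overlapped for both shares, with 16.7% to 19.9% in tdT+GFP+ libraries, against 19.1% to 23.7% in tdT-GFP+ libraries for Hoxb.

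**Figure D5:**
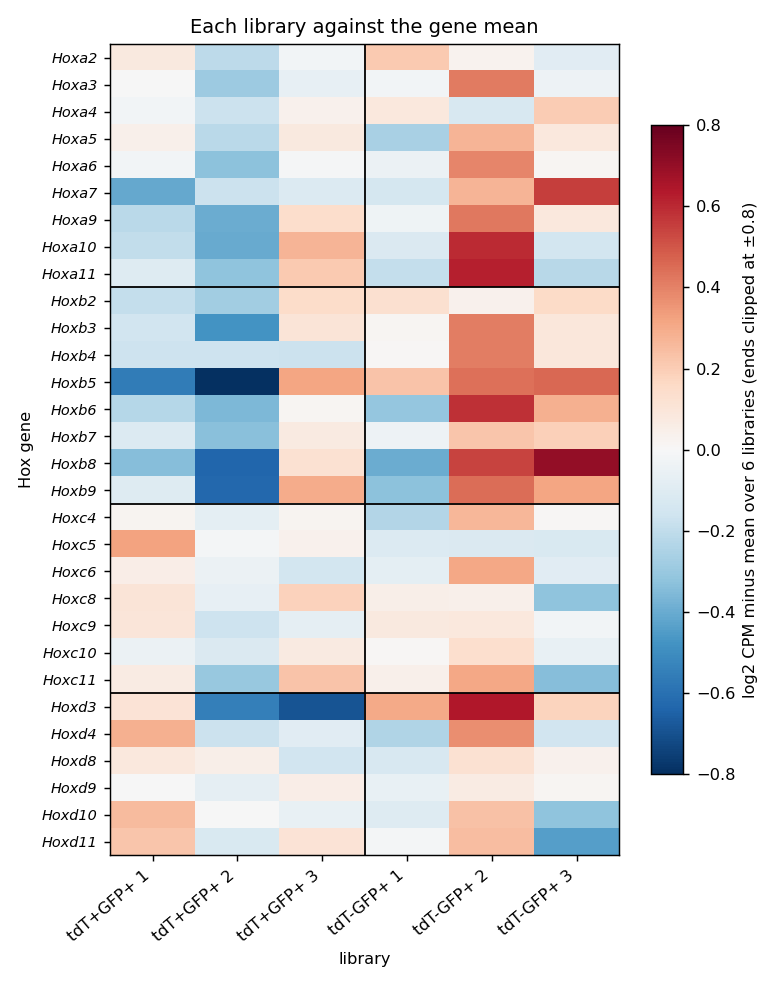
Log2 CPM of tested Hox genes (rows, by cluster) in each library (columns, tdT+GFP+ left of tdT-GFP+) minus the gene's mean over the 6 libraries, red for higher and blue for lower. The column of replicate 2 of tdT-GFP+ cells is red for most genes and that of replicate 2 of tdT+GFP+ cells blue, with medians of 0.27 and -0.21 over the 31 tested genes.

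No noncoding gene of the clusters passed the test, beside 0% of all genes tested, so the call does not set them apart. Of 17 such genes 11 had a row and 7 were tested, with 6 negative fold changes (median -0.20). Hoxa11os, the antisense partner of Hoxa11, had 21.2, 17.0 and 25.8 CPM in tdT+GFP+ libraries and 21.2, 34.0 and 18.0 CPM in tdT-GFP+ libraries. Its high library was the same as that of Hoxa11, with which it shares 800 bases of exon on the other strand. Hoxb3os had 0.610, 0.645 and 0.685 CPM in tdT+GFP+ libraries and 0.922, 1.61 and 2.11 CPM in tdT-GFP+ libraries, without overlap (log2 fold change -1.26, adjusted p = 0.414, SE 0.37), and it overlaps 2250 bases of Hoxb3 exons. No source used here gives the strand setting of the counting, so reads of such partners cannot be told apart with certainty.

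The partners that Hox proteins bind DNA with had fold changes in both directions. All 9 genes of the Pbx, Meis and Pknox (Prep) families were tested and 0 passed, beside 0% of all genes tested. Fold changes were positive for 5 and negative for 4, with a median of 0.0029. Meis2 had 147 to 163 CPM in tdT+GFP+ libraries, against 159 to 181 CPM in tdT-GFP+ libraries (log2 fold change -0.11, SE 0.08). Pknox2 had the smallest p of the list, at 84.4 to 89.8 CPM in tdT+GFP+ libraries, against 59.5 to 85.5 CPM in tdT-GFP+ libraries (0.24, adjusted p = 0.510, SE 0.13).

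Chromatin regulators that hold Hox clusters silent or active showed small differences in both directions. None passed the threshold, beside 0% of all genes tested. Of 27 Polycomb, Trithorax-type and insulator genes 12 had positive and 15 negative fold changes (median -0.01). Cbx7, a Polycomb reader of histone methylation, had 13.9, 14.5 and 15.6 CPM in tdT+GFP+ libraries and 16.8, 18.6 and 23.7 CPM in tdT-GFP+ libraries, without overlap (log2 fold change -0.42, adjusted p = 0.438, SE 0.14). Rbbp7, a histone-binding subunit of several chromatin complexes, had 183, 168 and 180 CPM in tdT+GFP+ libraries and 159, 158 and 137 CPM in tdT-GFP+ libraries (0.22, adjusted p = 0.451, SE 0.09). Neither passed over all genes, and 7 of the 27 did not overlap between the groups, with 3 lower and 4 higher in tdT+GFP+ cells (25.9%, beside 15.8% of all genes tested).

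Genes that act upstream of the Hox clusters in the embryo, or lie beside them, were in part at or near a count of 0 here. The list held caudal, Evx and Gbx2 genes, Gdf11, retinoic acid receptors and the enzymes that make or break down retinoic acid. Of its 17 genes 10 were tested (4 positive, 6 negative, median -0.08) and 0 passed, beside 0% of all genes tested. The caudal genes Cdx1, Cdx2 and Cdx4 and the neighbours Evx1 and Evx2 did not pass the filter, with Cdx2 and Evx2 at a count of 0 in all libraries. Retinoic acid induces Hox genes, and Aldh1a2, which makes it, was abundant at 1152, 1190 and 1415 CPM in tdT+GFP+ libraries and 1318, 1031 and 893 CPM in tdT-GFP+ libraries (log2 fold change 0.21, adjusted p = 0.617, SE 0.17). Cyp26b1, which breaks it down, had 2.65, 8.25 and 2.66 CPM in tdT+GFP+ libraries and 11.1, 13.04 and 27.1 CPM in tdT-GFP+ libraries, without overlap (-1.91, adjusted p = 0.414, SE 0.56). Gdf11, a signal that sets the onset of posterior Hox genes, had a log2 fold change of -0.36 (adjusted p = 0.457, SE 0.14).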

How the data were processed

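The 6 libraries came from sorted cells of mouse kidney and were poly(A) selected and made strand-specific per the labels' protocols. The authors deposited estimated counts per gene (RSEM output, per the file headers), which were already whole numbers, so none needed rounding. The submitters' processing notes list STAR 2.6.1, RSEM 1.2.28 and DESeq2 1.26.0 and the builds mm10 and GRCh38, with no role given. Neither annotation nor strand setting is named there. The 92 spike-in rows, all 0, were left out. Lengths and positions come from GENCODE M21 (GRCm38), in which 31748 of 31815 gene identifiers were found.

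Genes were filtered with filterByExpr, normalized by TMM, and group differences were tested in edgeR 4.0.16 (robust glmQLFit and glmQLFTest, group alone) in R 4.3.3, with Benjamini-Hochberg adjustment over all genes and a threshold of 0.05. Dividing a log2 fold change by the root of its F value gave its SE. CPM use TMM-scaled library sizes. Alternatives were DESeq2 1.42.0, limma-voom 3.58.1, other scalings and filters, the kidney as a block and leaving out libraries. The procedure was tested on simulated data. The labels' source names give same-numbered libraries the same kidney, and kidney numbers here are theirs. The pairing rests on the labels alone, since deviations of same-numbered libraries correlated by 0.04, -0.58 and -0.30 for kidneys 1, 2 and 3. Whether the kidneys came from separate mice beyond the label of biological replicates is not stated. Full values are printed for members with p under 0.05 or without overlap, the highest per kilobase and last tested member of each cluster, groups 10 and 11, and up to 4 genes of other lists by p. Other genes are named for their level or spread, and some genes are not reported here by name. Members and lists were chosen with earlier results of these data known. The floors at 3 counts cover counting error only, while the 95% intervals come from the edgeR fit and include the spread between libraries.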

Additional observations from a re-analysis of the deposited data

How the results depend on the processing

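No Hox gene was called in edgeR, DESeq2 or limma-voom under any of the 17 alternatives, and the smallest adjusted p among them was 0.145 (Hoxa7, without replicate 1 of tdT-GFP+ cells). Over all genes edgeR called 0, while DESeq2 called 19 higher and 285 lower and, with the kidney as a block, 38 higher and 249 lower. With the block, edgeR called 0 genes, and the block changed no Hox call. Leaving out each library or kidney gave medians of -0.29 to 0.012 for all tested Hox genes, -0.35 to -0.0073 for Hoxa, -0.50 to -0.14 for Hoxb, -0.11 to 0.12 for Hoxc and -0.072 to 0.17 for Hoxd. The sign held in every setting for 17 of the 31 genes. For the other 14 the log2 fold changes without a library or kidney ran from -0.23 to 0.13 for Hoxa5, -0.58 to 0.18 for Hoxa10, -0.48 to 0.26 for Hoxa11, -0.52 to 0.075 for Hoxb9, -0.16 to 0.12 for Hoxc4, -0.21 to 0.034 for Hoxc6, -0.020 to 0.26 for Hoxc8, -0.15 to 0.028 for Hoxc10, -0.29 to 0.28 for Hoxc11, -0.25 to 0.30 for Hoxd4, -0.11 to 0.065 for Hoxd8, -0.040 to 0.040 for Hoxd9, -0.0040 to 0.31 for Hoxd10, -0.059 to 0.37 for Hoxd11. With upper-quartile factors Hoxd4, at 0.0033 in the TMM fit, had -0.0086. With the longest transcript as length, the summed level was 261.5 CPM per kilobase in tdT+GFP+ cells, against 232.3 with the union of exons. The cause of these shifts was not tested. Scalings and filters moved no Hox median by more than the spread between libraries. Counting error was 15.2% of the mean for Hoxd3 and its median over the tested Hox genes was 4.89%, beside 15.8% for the spread between libraries.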

Other observations

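The list of nephric development held 16 nuclear regulators with the ligand gene Gdnf and the integrin gene Itga8. Of the 18 genes 16 were tested and 0 passed, beside 0% of all genes tested. Fold changes were positive for 5 and negative for 11 (median -0.43). Six2 and Eya1, marks of nephron progenitors in the embryo, did not pass the filter, at 0.122 to 0.258 CPM in tdT+GFP+ libraries, against 0.111 to 0.523 CPM in tdT-GFP+ libraries for Six2. Tbx18, a factor of perivascular mesenchyme, had 4.15, 5.58 and 2.44 CPM in tdT+GFP+ libraries and 2.63, 1.12 and 1.59 CPM in tdT-GFP+ libraries (log2 fold change 1.18, adjusted p = 0.444, SE 0.42, edgeR quasi-likelihood test).

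Tcf21, a stromal factor chosen with its values in view, showed 227, 170 and 261 CPM in tdT+GFP+ libraries and 190, 425 and 220 CPM in tdT-GFP+ libraries. It was lowest and highest in the same libraries as the summed Hox level. Aqp1, chosen in the same way, showed 216, 56.7 and 443 CPM in tdT+GFP+ libraries and 92.8, 1070 and 174 CPM in tdT-GFP+ libraries, while the other 9 proximal tubule markers summed to 251 CPM in replicate 2 of tdT-GFP+ cells, below the 732 CPM of its replicate 3. Gata3, a factor of the collecting duct and mesangium and chosen in the same way, was also highest there at 15.2 CPM and lowest in replicate 2 of tdT+GFP+ cells at 4.58 CPM. Some other genes of the nephric list ran the opposite way to Tcf21 and Gata3. Itga8 was highest in replicate 2 of tdT+GFP+ cells (163 CPM) and lowest in replicate 2 of tdT-GFP+ cells (71.6 CPM). The same held for Tbx18, at 5.58 and 1.12 CPM.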
